A study of Mus musculus with 14 samples.

Results

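The genes described here move calcium out of the cytosol of helper T cells. They are the calcium pumps Atp2a2, Atp2a3, Atp2b1 and Atp2b4 and the mitochondrial genes Mcu, Micu2 and Letm1. The probe sets of all 7 genes were found by annotation alone, though the genes were chosen with earlier results of these data known. The genes hold 19 of the 45101 probe sets in the table. A probe set is a group of short probes that together read 1 transcript. Of the 19 probe sets, 18 passed the filter on low signal and were tested among 29467, and the remaining one belongs to Letm1. Every probe set was tested for 6 of the 7 genes, and 13118 of the 18194 genes on the array had at least 1 tested probe set.

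Calcium that enters an activated T cell is removed along several routes. The SERCA pumps, encoded by Atp2a2 and Atp2a3, return it to the endoplasmic reticulum at the cost of ATP, and the plasma membrane pumps, encoded by Atp2b1 and Atp2b4, export it from the cell. Mitochondria take it up through the uniporter, whose pore is Mcu and whose opening is set by gatekeepers such as Micu2. Letm1 is a protein of the inner mitochondrial membrane that exchanges cations for protons. The length and pattern of the calcium signal help to decide which NFAT-dependent genes a helper T cell turns on.

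The series asked how transcripts change when Trpm4 is inhibited. Trpm4 is a plasma membrane channel that is opened by calcium and passes sodium, which lowers the driving force for calcium entry. Mouse T cells were polarised in culture to Th1 cells, the helper cells that make interferon gamma, or to Th2 cells, which make interleukin 4. Each of 14 conditions was read on 1 Affymetrix array. In each cell type there were untreated cells, cells with Thy1 siRNA, cells with Trpm4 siRNA, cells with the empty retroviral vector stimulated for 4 h or 12 h, and cells with a retrovirus carrying dominant negative (DN) Trpm4 stimulated for 4 h or 12 h. The labels name no time for the untreated and siRNA arrays, and the strain and number of mice are not given in the sources used here. No condition was repeated, so arrays matched in pairs served in place of replicates, and the p-values measure only the spread between these arrays, which may be technical. Levels are given as log2 of the quantile-normalised signal plus 16, where the floor is 4 and the median of all probe sets is 5.39. Errors after ± are standard errors of the limma fit in log2 units, and a probe set passed where its adjusted p was under 0.05 over all 29467.

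Total deposited signal per array ran from 7324678 to 10608719. The arrays were of different kinds in the ratio of signal from the 3′ and the 5′ end of the Gapdh and Actb control transcripts. The Gapdh control read from the 3′ end stood 5.64 to 6.07 log2 units above that from the 5′ end in 6 arrays (high 3′ bias), which were the Th1 arrays at 4 h and all Th2 retrovirus arrays. In the other 8 (low 3′ bias) the gap was -0.36 to 0.06. For the Actb control the gap was 3.91 to 4.92 in arrays of high and 0.04 to 0.51 in arrays of low 3′ bias. The Tfrc control did not separate the kinds, at 1.59 to 2.12 and 1.23 to 2.15. Markers of the labelled cells were present, with all 5 tested T helper markers above the array median on every array. The summed signal of 6 Th1 markers was 8400 to 17300 in Th1 arrays and 646 to 3960 in Th2 arrays, and that of 7 Th2 markers 554 to 2660 and 6310 to 24400. Markers of B cells summed to 150 to 426 in Th1 and 87.7 to 227 in Th2 arrays, those of CD8 T and natural killer cells to 59.8 to 709 and 59.1 to 819, and those of macrophages and dendritic cells to 165 to 386 and 229 to 412. Erythroid markers summed to at most 27.6, fibroblast markers to at most 158 and platelet markers to at most 261 on any array. As a check of the target, the deposited Trpm4 signal was 100.3 (Thy1 siRNA) against 58.44 (Trpm4 siRNA) in Th1, and 133.38 against 84.47 in Th2. In Th1 at 12 h it was 515.59 with DN Trpm4 and 75.31 with the vector, and at 4 h 119.15 and 70.54. In Th2 the DN Trpm4 and vector arrays read 129.1 and 135.39 at 12 h and 127.89 and 117 at 4 h. The deposited Thy1 signal with Thy1 siRNA and with Trpm4 siRNA was 2734.54 and 7254.33 in Th1 and 936.82 and 4362.2 in Th2.

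The promoters of Mcu, Atp2b1 and Atp2a3 are shown because these genes carry the differences between cell types and times given further on. Each sequence is the 250 bases before a transcription start in RefSeq, build GRCm38.p6, written in the direction of transcription. Capitals mark a match to TGANTCA (the AP-1 motif), GATAA (GATA factors) or GGAAA (the core bound by NFAT), searched on both strands, as were the other motifs named here.
Mcu, chr10:59616693-59616942, minus strand: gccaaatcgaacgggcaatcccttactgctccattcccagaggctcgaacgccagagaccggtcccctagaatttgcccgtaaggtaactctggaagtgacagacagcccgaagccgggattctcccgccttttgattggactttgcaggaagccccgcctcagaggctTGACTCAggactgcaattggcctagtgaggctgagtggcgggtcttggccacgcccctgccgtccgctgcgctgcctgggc
Atp2b1, first start, chr10:98914392-98914641, plus strand: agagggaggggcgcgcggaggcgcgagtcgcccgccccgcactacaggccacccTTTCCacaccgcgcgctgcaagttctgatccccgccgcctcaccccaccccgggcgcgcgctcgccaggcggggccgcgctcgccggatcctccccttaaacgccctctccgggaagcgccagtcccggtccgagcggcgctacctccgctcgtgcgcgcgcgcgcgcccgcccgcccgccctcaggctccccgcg
Atp2a3, chr11:72960919-72961168, plus strand: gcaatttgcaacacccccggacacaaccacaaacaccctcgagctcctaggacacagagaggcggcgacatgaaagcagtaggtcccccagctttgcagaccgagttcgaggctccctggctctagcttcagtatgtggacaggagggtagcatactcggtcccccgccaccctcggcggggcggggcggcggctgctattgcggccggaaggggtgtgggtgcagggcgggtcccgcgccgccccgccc
The Mcu window held 1 TGANTCA, 81 to 75 bases before the start, a motif found in 6.75% of all 32851 windows of this length. It also held 2 copies of ATTGG, the reversed CCAAT box, present in 33.8% of windows. The printed Atp2b1 window held 1 match to GGAAA on the opposite strand, where 55.6% of windows hold at least 1, and 4 of CCGCCC, the GC box, which 32.7% of windows hold. A second start of Atp2b1 has its window at chr10:98914902-98915151 (plus strand), which held 0 matches to GGAAA, 3 GC boxes and a GC content of 80.8%. The Atp2a3 window held 5 GC boxes and none of the 3 capitalised motifs, of which GATAA occurs in 22.6% of windows. GC content was 60.8% for Mcu, 78.4% for the printed Atp2b1 window and 66.8% for Atp2a3, against a median of 52.4% over all windows. In all, 6 of the 7 genes had a RefSeq window. A match is a string of letters and was not tested as a binding site.

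Atp2a2 encodes SERCA2, the pump found in nearly all cells. Its lead probe set, the one with the highest mean over the arrays, is 1427250_at. In Th1 cells it read 9.51 untreated, 11.14 with Thy1 siRNA, 11.12 with Trpm4 siRNA, 11.07 with vector and 11.01 with DN Trpm4 at 4 h, and 11.50 and 11.42 at 12 h. In Th2 cells the same conditions gave 9.96, 11.10, 11, 11.03, 10.54, 11.30 and 11.44. Both untreated arrays lay below the other 12, and Th1 and Th2 arrays overlapped.

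Atp2a3 encodes SERCA3, a pump of blood cells with lower calcium affinity. Its lead probe set, 1421129_a_at, read 8.95 in untreated Th1 cells, 7.72 and 7.67 with Thy1 and Trpm4 siRNA, 9.68 and 9.63 with vector and DN Trpm4 at 4 h, and 8.24 and 8.09 at 12 h. In Th2 cells the values were 9.88, 8.20, 8.19, 9.68, 9.62, 9.05 and 8.93. The 4 h arrays of both cell types lay within 0.06 of each other, from 9.62 to 9.68, and the siRNA arrays were the lowest in Th1 and in Th2.

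Atp2b1 encodes PMCA1, the most widely expressed plasma membrane calcium pump. It was read by 3 probe sets. On the lead, 1428936_at, Th1 cells gave 7.88 untreated, 9.02 and 8.98 with Thy1 and Trpm4 siRNA, 10.72 and 10.63 with vector and DN Trpm4 at 4 h, and 9.90 and 9.76 at 12 h. Th2 cells gave 9.54, 10.12, 10.03, 10.91, 10.46, 10.42 and 10.33. On 1428937_at the Th1 values were 8.08, 8.67, 8.76, 10.81, 10.78, 9.42 and 9.65 in the same order, and the Th2 values 9.28, 10.07, 10.01, 10.91, 10.64, 10.65 and 10.65. On both probe sets untreated Th1 cells were lowest and Th2 cells with the vector at 4 h were highest. The remaining one, 1452969_at, ran from 6.60 in Th1 with Thy1 siRNA to 9.01 in Th1 with DN Trpm4 at 4 h.

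Atp2b4 encodes PMCA4, a plasma membrane pump regulated by calmodulin, and had a single probe set, 1445701_at. It read 7.65 in untreated Th1 cells, 6.67 with each siRNA, 7.33 and 7.16 with vector and DN Trpm4 at 4 h, and 6.56 and 6.29 at 12 h. In Th2 cells it read 7.13, 6.94, 6.95, 6.43, 6.37, 6.36 and 6.22. Untreated cells were highest within each cell type, and the 4 Th2 retrovirus arrays spanned 6.22 to 6.43.

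Mcu, the uniporter pore, was read by 1453166_at as lead. Th1 cells gave 7.46 untreated, 7.22 and 7.17 with Thy1 and Trpm4 siRNA, 7.20 and 7.51 with vector and DN Trpm4 at 4 h, and 6.63 and 6.88 at 12 h. Th2 cells gave 7.55, 7.53, 7.75, 8.42, 8.74, 8.77 and 8.59. The 4 Th2 retrovirus arrays, at 8.42 to 8.77, stood above the other 10, and the 7 Th1 arrays stood at or below 7.51. Its other probe set, 1442031_at, was near the floor at 4.35 to 5.55.

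Micu2, a gatekeeper of the uniporter, had 1 probe set, 1454808_at. It lay between 8.83 and 9.28 on the 8 arrays of low 3′ bias and between 7.98 and 8.19 on the 6 of high 3′ bias, so that these kinds of array did not overlap. The highest values were those of untreated Th1 (9.28) and untreated Th2 cells (9.06). How many of all probe sets show no overlap between the kinds was not counted.

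Letm1, the inner membrane exchanger, was read by 1420826_at as lead. It gave 6.86 in untreated Th1 cells, 9.49 and 9.11 with Thy1 and Trpm4 siRNA, 9.02 and 9.15 with vector and DN Trpm4 at 4 h, and 9.10 and 9.17 at 12 h. In Th2 cells the values were 7, 8.71, 8.80, 8.95, 8.89, 9.39 and 9.18. Both untreated arrays stood apart, and the other 12 lay between 8.71 and 9.49. The other 3 probe sets of Letm1 ran from 4.67 to 6.09 and showed no such gap.

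With 1 array per condition, neighbours in these orders have no spread of their own. The 6 pairs of Trpm4 siRNA with Thy1 siRNA or DN Trpm4 with vector, matched in cell type and time, give a scale for it. The pairs also differ in Trpm4 treatment, and the siRNA pairs in Thy1, so this scale may not be of array spread alone. Lead values within pairs differed by 0.02 to 0.15 for Atp2a3 and by 0.04 to 0.45 for Atp2b1, and by up to 0.48 for Atp2a2, 0.38 for Letm1 and 0.32 for Mcu. Pair differences ran from -0.27 to 0.02 for Atp2b4 and from -0.15 to 0.05 for Micu2. On this scale, neighbouring conditions closer than that cannot be put in order.

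**Figure D1:**
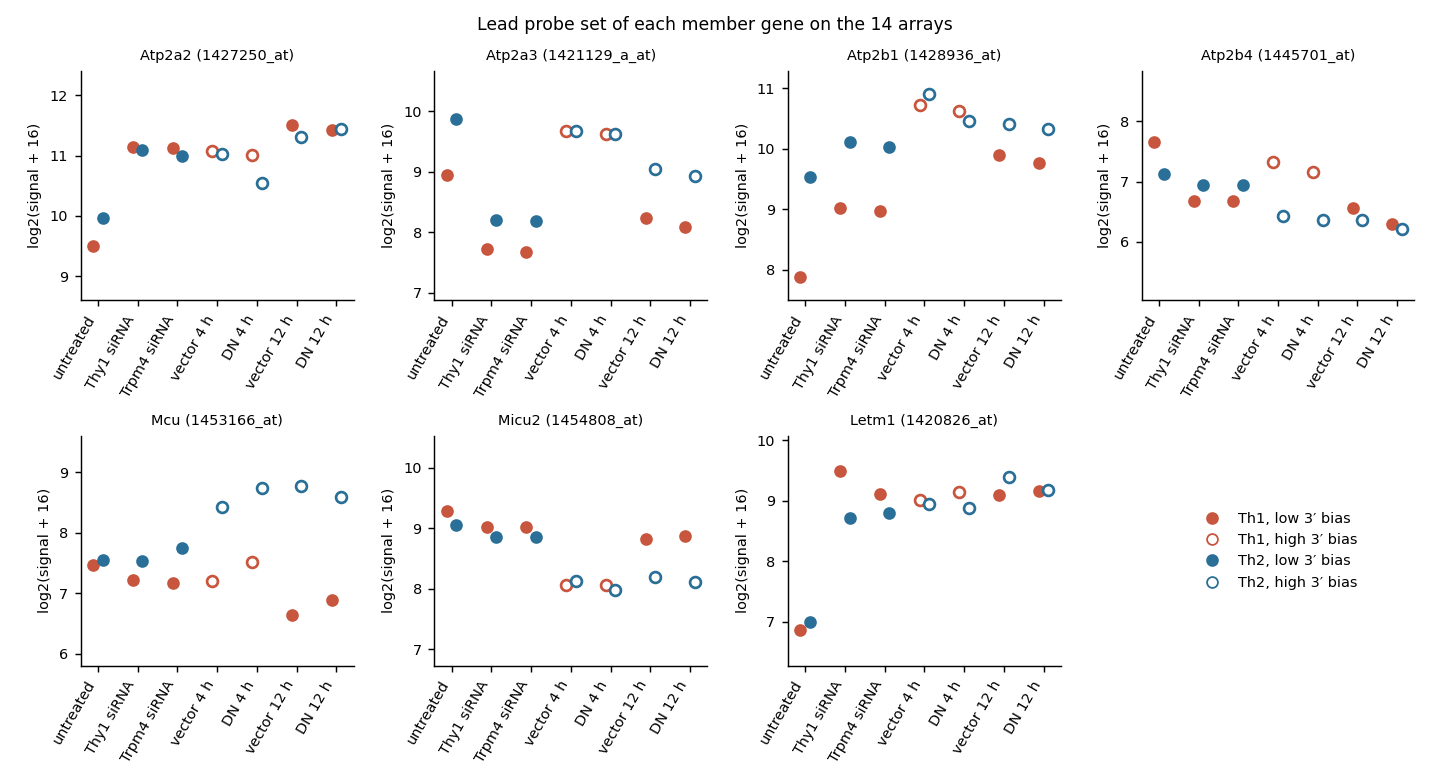
Level of the lead probe set of each gene on the 14 arrays, as log2 of normalised signal plus 16, with 1 point per array and no error bars since each condition had 1 array. Panels share the length of the y axis but not its origin. Mcu in Th2 cells with retrovirus (8.42 to 8.77) stands above Mcu on every Th1 array, and Letm1 and Atp2a2 are lowest in untreated cells.

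The cell types were set against each other in 7 pairs of arrays that share treatment and time. The lead of Mcu and 1428937_at of Atp2b1 passed as higher in Th2 cells, though not in the pairs of equal 3′ bias given further on. Mcu had a Th1 minus Th2 difference of -1.04 ± 0.24 on the log2 scale (7 pairs, adjusted p = 0.0274), with mean levels of 7.16 and 8.19. In such bulk RNA fewer cells of a type and less RNA per cell cannot be told apart. Atp2b1 on 1428937_at gave -0.86 ± 0.21 (adjusted p = 0.0301), with means of 9.45 and 10.32. These were 2 of 18 tested probe sets, both higher in Th2, against 6.14% of all probe sets higher in Th2, 3.65% higher in Th1 and 9.79% passing in either direction. The share of members passing in either direction was near that of all probe sets. The median over the 18 was 0.01, as it was over all probe sets tested.

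Mcu was lower in Th1 in 7 of 7 pairs, from -2.13 to -0.08 with a median of -1.22, a pattern found in 8.12% of all probe sets, while 5.85% were higher in Th1 in every pair and 0 of 18 members were. After quantile normalisation the highest Th1 array (7.51) was just below the lowest Th2 array (7.53), as for 1.49% of probe sets, and 1.96% had no overlap in either direction. On the deposited scale the groups overlapped, with a highest Th1 value of 7.63 and a lowest Th2 value of 7.43. The low probe set of Mcu gave -0.29 ± 0.12 (adjusted p = 0.146).

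Atp2b1 on 1428937_at was lower in Th1 in 6 of 7 pairs, from -1.40 to 0.13. Its other probe sets had differences of -0.71 ± 0.21 (adjusted p = 0.0602) and -0.64 ± 0.20 (adjusted p = 0.0691) and did not pass. The Atp2a3 lead gave -0.51 ± 0.15 (adjusted p = 0.0634), from -0.93 in the untreated pair to 0.01 at 4 h. Atp2b4 (0.27 ± 0.17), Micu2 (0.28 ± 0.13), the lead of Letm1 (0.14 ± 0.14) and that of Atp2a2 (0.06 ± 0.13) did not pass, with adjusted p from 0.197 to 0.805.

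The 12 h pairs join a Th1 array of low 3′ bias to a Th2 array of high 3′ bias, so the comparison was repeated within each kind. In the 3 pairs of low bias, untreated and siRNA, Atp2b1 on 1428937_at differed by -1.28 (adjusted p = 0.0463) and Mcu by -0.32 (adjusted p = 0.365). In the 2 pairs of high bias, both at 4 h, Atp2b1 differed by 0.01 (adjusted p = 0.955) and Mcu by -1.22 (adjusted p = 6.81e-05). Over these 5 pairs of equal kind Atp2b1 gave -0.76 (adjusted p = 0.148) and Mcu -0.68 (adjusted p = 0.111). Of all 29467 probe sets 319 passed in the pairs of low bias, 8111 in those of high bias and 1256 in those of equal kind. The fit of the 2 pairs of high bias had 1 residual degree of freedom. The call of Mcu was lost without the vector pair at 12 h (-0.85, adjusted p = 0.0623), the DN Trpm4 pair at 12 h (-0.92, adjusted p = 0.0776), the vector pair at 4 h (-1.01, adjusted p = 0.0618) or the DN Trpm4 pair at 4 h (-1, adjusted p = 0.0682). That of Atp2b1 was lost without any 1 of the untreated, siRNA or 12 h pairs (adjusted p from 0.0628 to 0.0803), with median-centred arrays (-0.83, adjusted p = 0.055) and without the pairing (adjusted p = 0.379). Over all settings run the adjusted p ran from 0.0166 to 0.955 for Atp2b1 on 1428937_at and from 6.81e-05 to 0.365 for Mcu.

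**Figure D2:**
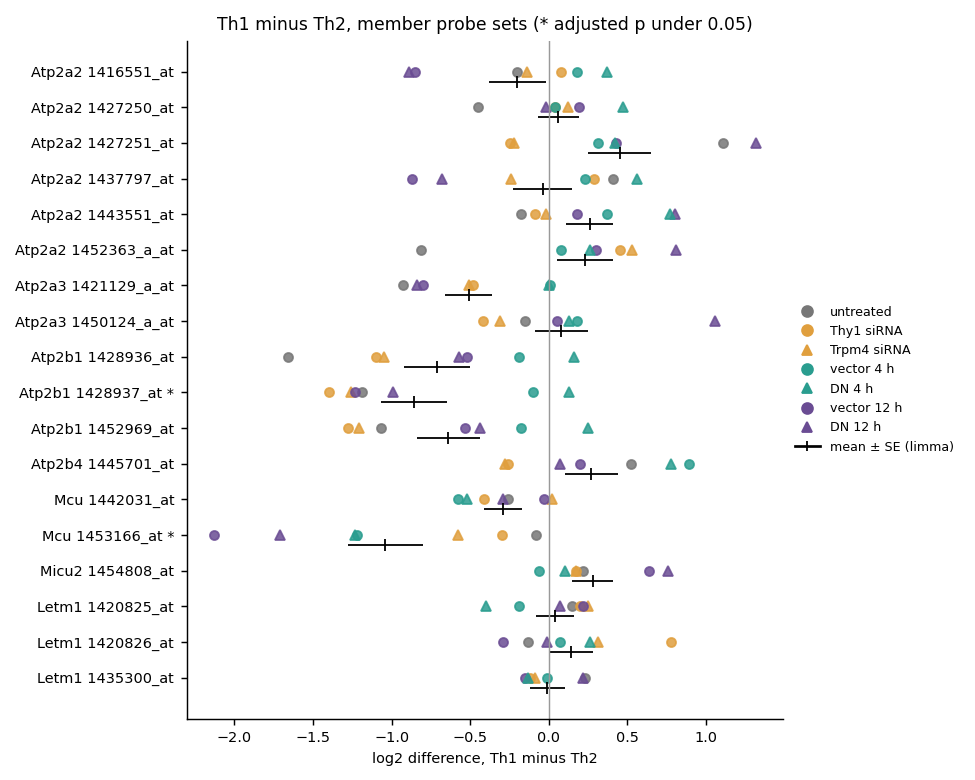
Log2 difference of Th1 minus Th2 for each of the 18 tested probe sets, with 1 point per pair of arrays and the mean ± standard error of the limma fit in black below the points. The Mcu lead lies left of 0 in 7 of 7 pairs, and the 4 h pairs of Atp2b1 lie near 0 while its untreated and siRNA pairs lie near or below -1.

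Whether the difference between cell types itself differed between the 4 h retrovirus arrays and the siRNA arrays was tested directly, in a comparison chosen after seeing the data (8 arrays, 2 residual degrees of freedom). Atp2b1 was lower in Th1 than in Th2 with siRNA, and at 4 h the cell types did not differ past the threshold. On 1428937_at Th1 minus Th2 was -1.33 ± 0.12 with siRNA (adjusted p = 0.000306) and 0.01 ± 0.12 at 4 h (adjusted p = 0.944), and the change between these was 1.34 ± 0.17 (adjusted p = 0.0019). The other probe sets of Atp2b1, the lead and 1452969_at, changed by 1.06 ± 0.18 and 1.27 ± 0.19 (adjusted p = 0.00564 and 0.00365). Atp2b4 moved the same way, from -0.27 ± 0.11 to 0.84 ± 0.11, a change of 1.11 ± 0.16 (adjusted p = 0.00285). Mcu moved the other way, from -0.44 ± 0.12 (adjusted p = 0.0279) to -1.22 ± 0.12 (adjusted p = 0.000525), a change of -0.78 ± 0.17 (adjusted p = 0.0143).

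In this test 9 of 18 probe sets passed, 8 with a positive change and Mcu with a negative one, against 29.4% of all probe sets in either direction, 14.8% with a positive and 14.6% with a negative change. The remaining positive changes were those of Atp2a3, at 0.50 and 0.53, and of 2 probe sets of Atp2a2, at 0.60 and 0.63. At 4 h alone 5 of 18 passed, 3 higher and 2 lower in Th1, against 28.3% of all (14.1% higher, 14.2% lower). With siRNA 8 of 18 passed, 2 higher and 6 lower in Th1, against 34.4% (17.6% higher, 16.9% lower). The 4 h arrays were all of high and the siRNA arrays all of low 3′ bias. Treatment, stimulation and 3′ bias therefore cannot be told apart in this comparison.

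Between 4 h and 12 h of stimulation the lead probe set of Atp2a3 fell in Th2 cells, where all 4 arrays were of high 3′ bias. It changed by -0.66 ± 0.14 (12 h minus 4 h, adjusted p = 0.0197), from 9.68 to 9.05 with the vector and from 9.62 to 8.93 with DN Trpm4. It was the only 1 of 18 probe sets to pass in Th2 cells, against 5.57% of all probe sets that were lower at 12 h, 4.51% that were higher and 10.1% in either direction. The share of members lower at 12 h was thus near that of all probe sets. Settings moved the adjusted p of the Atp2a3 lead between 0.00424 and 0.0985. The call was lost with a pseudocount of 1 (adjusted p = 0.0985), without the DN Trpm4 pair (-0.63, adjusted p = 0.0561) and without either Th1 pair, which share the estimate of spread (adjusted p = 0.053 each). The other probe set of Atp2a3, 1450124_a_at, gave -0.07 ± 0.20. In the same comparison 3 of 5 T helper markers were lower at 12 h and 0 higher, with a median of -0.52 against 0.01 over all probe sets, and the part of this in the fall of Atp2a3 was not tested. Atp2a2 had a difference of 0.59 ± 0.17 (adjusted p = 0.0673) and Letm1 of 0.36 ± 0.14 (adjusted p = 0.139) on their leads, which did not pass, and Mcu one of 0.10 ± 0.16.

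In Th1 cells the 4 h arrays were of high and the 12 h arrays of low 3′ bias, so time and 3′ bias cannot be told apart. Here 13 of 18 probe sets passed, 5 higher and 8 lower at 12 h, against 27% of all probe sets higher, 29.1% lower and 56.1% in either direction. The Atp2a3 lead changed by -1.48 ± 0.14 and Atp2b1 by -0.84 ± 0.15 to -1.26 ± 0.15. Atp2b4 changed by -0.82 ± 0.14, the Mcu lead by -0.60 ± 0.16 and Micu2 by 0.78 ± 0.13 (adjusted p from 3.43e-05 to 0.0113 for all these). The low probe set of Mcu passed in the other direction, at 0.65 ± 0.16 (adjusted p = 0.00803). Probe sets of Atp2a2 that passed were split in direction. They gave -1.13 on 1416551_at and -1.35 on 1437797_at, but 0.71 on 1427251_at and 0.43 on 1452363_a_at. A minor probe set of Letm1, 1420825_at, passed at 0.45. Without the DN Trpm4 pair in Th1 the count was 7. The test of the difference between the cell types passed for 7 of 18, 1 positive and 6 negative, against 38.2% of all probe sets (18.1% positive, 20.1% negative). Without either Th1 pair that count was 3. Over both cell types together 0 of 18 passed in limma, against 2.01% of all probe sets (0.713% higher, 1.3% lower). At an unadjusted p under 0.05 there were 8 of 18 members and 8301 of 29467 probe sets. Without the pairing 5 members and 6113 of 29467 probe sets passed.

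Arrays labelled as Trpm4 siRNA or DN Trpm4 were compared with their matched controls (Thy1 siRNA or vector) in 6 pairs. By limma 0 of 18 member probe sets passed. In the 2 Th2 pairs labelled DN Trpm4 the Trpm4 signal of the DN array was close to that of the vector array (129.1 and 135.39 at 12 h, 127.89 and 117 at 4 h), unlike in Th1, so the Trpm4 probe set does not bear out that label. In Th1 the same probe set read 515.59 with DN Trpm4 and 75.31 with the vector at 12 h, and 119.15 and 70.54 at 4 h. The Th1 arrays at 12 h were of low 3′ bias, and the Th1 arrays at 4 h and all Th2 retrovirus arrays of high 3′ bias. At 12 h cell type and 3′ bias therefore cannot be told apart in this check. Whether the signal comes from the DN transcript was not tested. With both of these pairs left out, a setting chosen after seeing the data, 0 member probe sets passed as well, and the Mcu lead stood at 0.18 (adjusted p = 0.712) and the Atp2b1 lead at -0.09 (adjusted p = 0.788). The Mcu lead had the highest mean, 0.15 ± 0.08 (adjusted p = 0.86), and was above 0 in 4 of 6 pairs, from -0.17 to 0.32. Atp2b1 on its lead had the lowest mean, -0.15 ± 0.07 (adjusted p = 0.846), and was below 0 in 6 of 6 pairs, from -0.45 in Th2 at 4 h to -0.04. The Atp2a3 lead was also below 0 in 6 of 6 pairs, from -0.15 to -0.02, with a mean of -0.07 ± 0.06 (adjusted p = 0.924). A single direction in all 6 pairs was found for these 2 of 18 probe sets, against 3.59% of all. The other probe sets of Atp2b1 did not keep that direction, with pairs from -0.27 to 0.24 and from -0.26 to 0.19.

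By limma 0 of 18 members and 0 of 29467 probe sets (0%) passed over both cell types, in Th1, in Th2, in the difference between them, with DN Trpm4 alone and with siRNA alone. At an unadjusted p under 0.05 there were 0, 1, 0, 1, 0 and 1 members and 1733, 928, 1824, 1032, 997 and 3318 probe sets in these comparisons, in that order. The 1 in Th1 and in the difference was 1443551_at of Atp2a2, with a difference between the effects of 0.37 ± 0.15. That probe set lies near the floor, at 4.70 to 5.76. The 1 with siRNA was 1427251_at of Atp2a2, at -0.35 ± 0.10 (adjusted p = 0.409). The siRNA comparison had 1 residual degree of freedom. Standard errors of the members in the 6-pair comparison were 0.06 to 0.12.

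**Figure D3:**
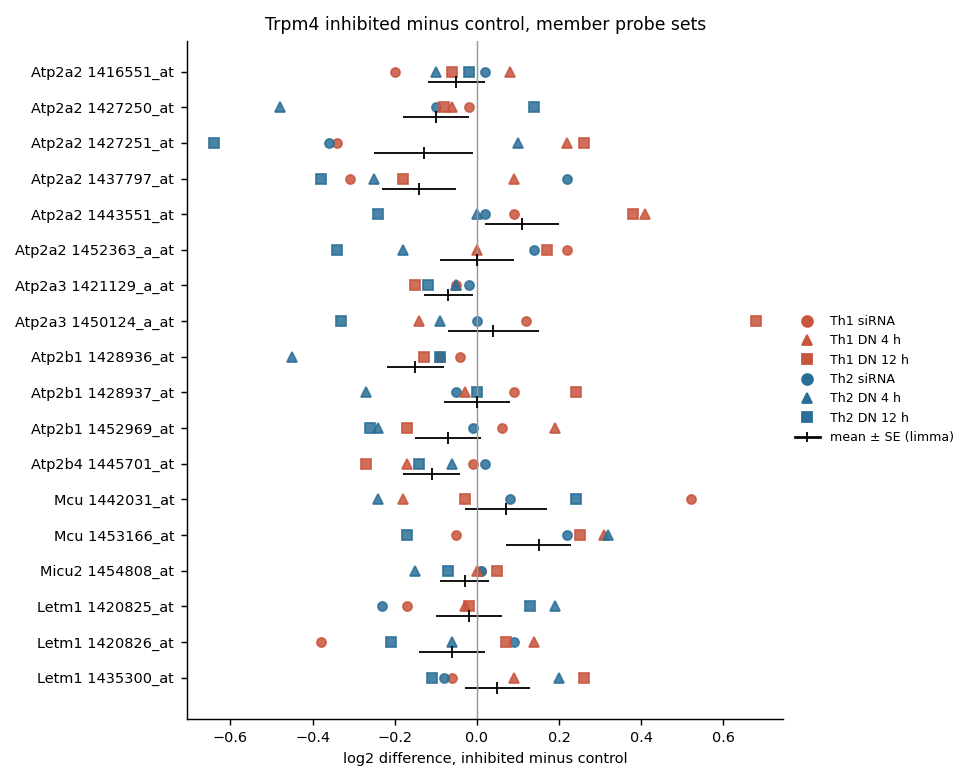
Log2 difference of Trpm4 inhibited minus control for each of the 18 tested probe sets, with 1 point per pair of arrays and the mean ± standard error of the limma fit in black below the points. Pairs fall on both sides of 0 for 16 of 18 probe sets, or touch it, and for the leads of Atp2a3 and Atp2b1 all 6 lie below 0.

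Arrays of siRNA-transfected cells and of untreated cells were all of low 3′ bias, and their ratios are given as a description, since each cell type had 1 untreated array that both of its ratios share. The labels name no time for these arrays, so transfection and any difference in stimulation cannot be told apart. The Letm1 lead was higher on siRNA than on untreated arrays, at log2 ratios of 2.63 (Thy1 siRNA) and 2.25 (Trpm4 siRNA) in Th1 and 1.71 and 1.81 in Th2. Its deposited signal was 73.67 and 102.26 in untreated Th1 and Th2 cells and 776.51, 621.35, 454.52 and 519.75 with siRNA. On this lead the retrovirus arrays, which had no siRNA, read 8.89 to 9.39, and the siRNA arrays 8.71 to 9.49. Atp2a2 was higher on its lead, at 1.63, 1.61, 1.14 and 1.05, but its probe sets disagreed. On 1427251_at the ratios were -0.88 and -1.22 in Th1 and 0.47 and 0.11 in Th2, and on 1437797_at they were 0.01, -0.30, 0.12 and 0.34. Atp2a3 was lower, at -1.22, -1.27, -1.67 and -1.69. Past 2-fold in all 4 ratios were 2 of 18 probe sets upward, those of Letm1 and Atp2a2, and the Atp2a3 lead downward, against 4.95% and 4.71% of all probe sets and 9.67% in either direction.

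The other genes moved less on their leads. Atp2b1 had ratios of 1.14 and 1.09 in Th1 and 0.58 and 0.49 in Th2, and Atp2b4 of -0.97 and -0.98 in Th1 and -0.20 and -0.18 in Th2. Mcu lay between -0.29 and 0.20 and Micu2 between -0.26 and -0.21. Another probe set of Atp2b1, 1452969_at, did not follow the lead and lay between -0.16 and 0.05. The other probe sets of Letm1 lay between -0.39 and 0.41.

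**Figure D4:**
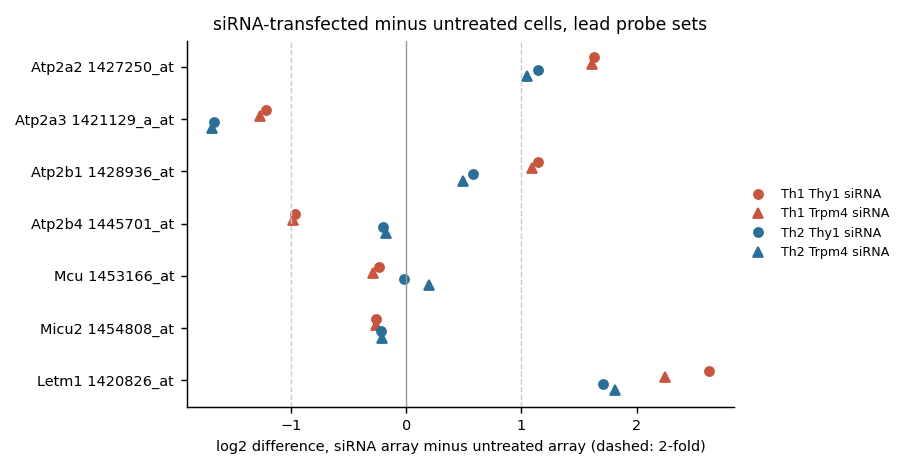
Log2 ratio of each siRNA array over the untreated array of its cell type, for the lead probe set of each gene, with dashed lines at 2-fold. Letm1 and Atp2a2 lie right of the upper line in all 4 ratios and Atp2a3 lies left of the lower line in all 4.

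Probe sets of 1 gene did not always move together over the 14 arrays. These correlations are descriptions over arrays that share kinds and treatments. The 3 probe sets of Atp2b1 correlated at r = 0.92 to 0.97. The 2 of Atp2a3 had r = -0.15 and the 2 of Mcu r = 0.08. Among those of Atp2a2, 1416551_at correlated with 1437797_at at r = 0.95 and with 1427251_at at r = -0.85.

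Levels also differed by kind of array, upward for some probe sets and downward for others of the same gene. The mean of the 6 arrays of high 3′ bias minus that of the 8 of low bias was 1.40 for 1416551_at, 1.44 for 1437797_at and 0.96 for 1452363_a_at of Atp2a2, but -1.03 for 1427251_at and 0.22 for the lead. It was 1.06 and -0.80 for the probe sets of Atp2a3, 1.17 to 1.5 for those of Atp2b1, 0.93 for the Mcu lead, 0.56 for the Letm1 lead and -0.88 for Micu2. The kinds did not overlap on any probe set of Atp2b1, where the arrays of low and high bias spanned 7.88 to 10.12 and 10.33 to 10.91 on 1428936_at, 8.08 to 10.07 and 10.64 to 10.91 on 1428937_at, and 6.60 to 8.16 and 8.44 to 9.01 on 1452969_at. Of the 6 arrays of high bias 4 were Th2. Nor did the kinds overlap on 3 probe sets of Atp2a2, at 6.89 to 8.04 and 8.81 to 9.18 on 1416551_at, 5.53 to 6.41 and 6.90 to 7.71 on 1437797_at, and 7.33 to 8.55 and 6.35 to 6.99 on 1427251_at. How many of all probe sets lack overlap between the kinds was not counted, so these cases cannot be called particular to the members. The part of 3′ bias in these values was not tested.

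**Figure D5:**
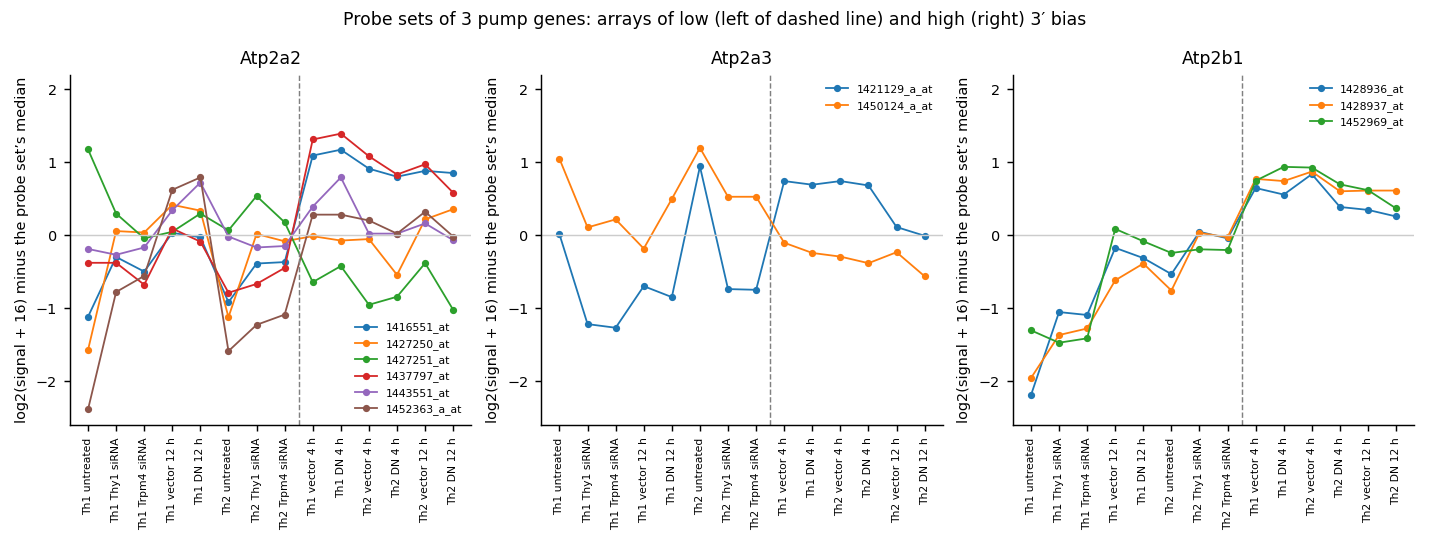
Tested probe sets of Atp2a2, Atp2a3 and Atp2b1 on the 14 arrays, each as its log2 level minus its own median, with arrays of low 3′ bias left of the dashed line and of high 3′ bias right of it. Lines join the values of 1 probe set and carry no order in time. The lines of Atp2b1 run together, and those of Atp2a3 cross between the kinds of array.

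Other calcium genes were read from lists of pumps, exchangers and their regulators (24 genes, 16 tested), of mitochondrial calcium handling (24 genes, 20 tested) and of calcium stores, release and entry (20 genes, 16 tested). Each gene was read on its probe set of highest mean. In Th1 minus Th2, 0 pump and exchanger genes and 0 mitochondrial genes passed, with medians of -0.01 and 0.02 against 0.01 over all probe sets, of which 9.79% passed. The smallest p-values among pumps and regulators were those of Nptn, a partner subunit of plasma membrane pumps, at -0.42 ± 0.16 (adjusted p = 0.121), and of Sln, a SERCA inhibitor, at -0.41 ± 0.16 (adjusted p = 0.138). Among mitochondrial genes they were those of Rhot1, a calcium-binding GTPase that moves mitochondria, at 0.69 ± 0.21 (adjusted p = 0.0703), and of Slc25a24, a calcium-regulated ATP carrier, at -0.63 ± 0.20 (adjusted p = 0.0708). Of the stores list 1 of 16 genes passed, Itpr2, a receptor that releases stored calcium, which was lower in Th1 at -1.59 ± 0.32 (adjusted p = 0.0145).

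In Th2 cells 8 of 16 genes of the stores list passed between 4 h and 12 h, 5 higher and 3 lower, against 10.1% of all probe sets. These shares are not like for like. The list was chosen with earlier results of these data known, and its genes were read on their probe sets of highest mean. The list median was -0.05. Higher at 12 h were chaperones of the endoplasmic reticulum, Hsp90b1 at 1.32 ± 0.14 (adjusted p = 0.00182), the calcium-binding Calr at 0.97 ± 0.14 (adjusted p = 0.00498) and Canx at 0.69 ± 0.15 (adjusted p = 0.0218). Hspa5, a further chaperone, and Herpud1, which takes part in the breakdown of misfolded proteins, were also higher, at 0.88 ± 0.20 and 0.62 ± 0.16 (adjusted p = 0.0291 and 0.0458). Saraf, an inhibitor of store-operated entry, was lower, at -0.78 ± 0.13 (adjusted p = 0.0104). Also lower were Orai2, a channel subunit of store-operated entry, at -0.59 ± 0.15 (adjusted p = 0.046), and Itpr3, a receptor that releases stored calcium, at -0.54 ± 0.14 (adjusted p = 0.048), both named after their values were seen. Among pumps and exchangers 1 gene passed, the sodium, calcium and potassium exchanger Slc24a3, which rose by 0.76 ± 0.15 (adjusted p = 0.0177, list median 0.07). Of the mitochondrial list 0 passed (median -0.07). With Trpm4 inhibited 0 genes of any list passed, with medians of 0, -0.03 and -0.02.

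For each lead probe set the 2 genes of most similar pattern were taken by Pearson's r over the 14 arrays, as a description. They were Psmd14 (r = 0.97) and Mpp6 (0.97) for Atp2a2, Ctss (0.97) and Clk4 (0.96) for Atp2a3, and Cish (0.97) and Kbtbd7 (0.97) for Atp2b1. For Atp2b4 they were Cmah (0.93) and Ifi213 (0.92). Those of the mitochondrial genes were Suclg1 (0.97) and Creb3 (0.97) for Mcu, Bcat2 (0.99) and Sf3b2 (0.99) for Micu2, and Cct3 (0.98) and Yars2 (0.98) for Letm1. Spearman's rho of these pairs ran from 0.87 to 0.98. Among the members, the leads of Atp2a2 and Letm1 had r = 0.92 and those of Atp2b1 and Micu2 r = -0.86. The leads of Atp2a2 and Letm1 were both lowest on the untreated arrays. Those of Atp2b1 and Micu2 each separated the kinds of 3′ bias, in opposite directions. The part of this in the r values was not tested.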

How the data were processed

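Total RNA of cultured mouse Th1 and Th2 cells was hybridised to 14 Affymetrix arrays. The deposited values are linear intensity, 1 per probe set and array. Probe summarisation and array scaling by the authors are not given in the sources used here. Gene names came from the platform annotation, which lists 34958 probe sets with 1 gene, 932 with several and 9211 with none. Tests left out 64 control probe sets.

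Intensities were quantile normalised, a pseudocount of 16 was added and log2 taken, which understates differences near the floor. Probe sets above the array median in at least 2 arrays were kept. Each comparison was fitted on all 29467 by limma 3.58.1 (lmFit, eBayes; R version 4.3.3), blocked on the pair, two-sided, with Benjamini-Hochberg adjustment. Residual degrees of freedom were 6 for Th1 minus Th2, 5 for Trpm4 inhibition over both cell types and 2 for 12 h minus 4 h per cell type. The number of arrays limits the precision. The fits of Th1 minus Th2, of Trpm4 inhibition over both cell types and of 12 h minus 4 h in Th2 were also run on simulated data. The outcome of those runs is not reported here. Array numbers are not shared between conditions in the labels, so pairs come from equal treatment, time and cell type.

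The named genes were the 7 members on every probe set, up to 6 genes per list and comparison that passed, or else the 2 of smallest p, and the 2 most similar genes of each lead. Alternatives were deposited or median-centred values, no filter or one at the 75th percentile, pseudocounts of 1 and 64, a trended or robust eBayes, no pair block, each pair left out, and pairs within 1 kind of 3′ bias. The members, lists and rules were chosen with earlier results of these data known.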

Additional observations from a re-analysis of the deposited data

Results flagged for a closer look

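With Trpm4 inhibited, the Th2 pair at 4 h stood apart for Atp2b1 on 1428936_at, at -0.45 against -0.13 to -0.04 in the other 5 pairs. It was 1 of 21 groups of pair differences that were looked at, and chance sets apart about 1 in 20.

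The change from 4 h to 12 h differed between Th1 and Th2 cells by the test of the difference (Th1 effect minus Th2 effect, limma adjusted p from 0.00235 to 0.0387). This test passed for 7 of 18 member probe sets, against 38.2% of all probe sets, so the share of members was near that of all. The difference was -1.14 and -1.17 for 1416551_at and 1437797_at of Atp2a2, -0.82 for the Atp2a3 lead, -1.13 for 1428937_at of Atp2b1, -0.70 for Atp2b4, -0.70 for the Mcu lead and 0.68 for Micu2. In Th1 cells 3′ bias changed between the times and in Th2 cells it did not, so time and 3′ bias cannot be told apart in these values.

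The difference between Th1 and Th2 was not equal at 4 h and with siRNA, in a test chosen after seeing the data (adjusted p from 0.0019 to 0.049), for 9 of 18 against 29.4% of all probe sets. It changed by 1.34, 1.27 and 1.06 on the probe sets of Atp2b1, 1.11 for Atp2b4, 0.63 and 0.60 for 1443551_at and 1427251_at of Atp2a2, 0.53 and 0.50 for Atp2a3 and -0.78 for the Mcu lead. The 4 h arrays were of high and the siRNA arrays of low 3′ bias, and the part of this was not tested.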

How the results depend on the processing

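In Th1 minus Th2 the 2 members that passed became 1 with median-centred arrays, 1 with no replicate block, 1 in the pairs of low 3′ bias, 4 in those of high 3′ bias and 0 in the 5 pairs of equal kind, and 0 to 3 with 1 pair left out. Atp2b1 on 1428937_at stood at 0.01 in the pairs of high 3′ bias, with no difference past the threshold. Over both cell types 12 h minus 4 h gave 0 members, and 5 with no replicate block, where 6113 of 29467 probe sets passed. In Th2 cells the 1 member became 2 with a filter at the 75th percentile, a trended eBayes or no replicate block, 0 with a pseudocount of 1, 3 with a pseudocount of 64, and 0 to 2 with 1 pair left out. In Th1 cells leaving out 1 pair moved 13 members to between 7 and 15, and in the difference between cell types 7 to between 3 and 8. With Trpm4 inhibited 0 members passed under every setting run.

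Over all probe sets the pairing changed the count for Th1 minus Th2 from 2884 to 837 with no replicate block, and for 12 h minus 4 h from 592 to 6113. With 1 pair left out the count for Th1 minus Th2 ran from 1450 to 2901, and it was 319, 8111 and 1256 in the pairs of low bias, of high bias and of equal kind. The count was more than 1.5 times lower without the Thy1 siRNA (1907), Trpm4 siRNA (1802), vector 12 h (1509), DN Trpm4 12 h (1450) or DN Trpm4 4 h pair (1770). Among members it was 0 without either 12 h pair and 3 without the DN Trpm4 pair at 4 h. For 12 h minus 4 h it was 0 with a pseudocount of 1 or with any pair left out, and 351 with a trended eBayes. In Th2 cells 2970 became 0 with a pseudocount of 1 and 1846 without either Th1 pair, and in Th1 cells 16537 became 10583 and 9919 without the vector and the DN Trpm4 pair. The difference between cell types went from 11253 to 5845 and 6336 without a Th1 pair. The trended eBayes called 98 probe sets and a pseudocount of 64 called 4 in the siRNA comparison, where 0 passed as reported. Deposited values shifted the median of all probe sets for 12 h minus 4 h in Th1 from -0.01 to -0.12. Leaving out a pair was not run for the siRNA comparison, which would have no residual degrees of freedom. With DN Trpm4 there was 1 kind of array with enough pairs, that of high 3′ bias. Low signal limits 1442031_at of Mcu, 1443551_at of Atp2a2 and the minor probe sets of Letm1.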

Other observations

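Th1 cells at 12 h and Th1 cells with siRNA were both read on arrays of low 3′ bias, and their means are set side by side as a description. Atp2b1 was higher at 12 h, at log2 differences of 0.83, 0.82 and 1.45 on its 3 probe sets. Atp2a2 differed by 0.33 on its lead and by 1.38 on 1452363_a_at, Atp2a3 by 0.47, Atp2b4 by -0.25, Micu2 by -0.16, Letm1 by -0.17 and Mcu by -0.44 on their leads. Past 2-fold were 2 of 18 probe sets, both higher at 12 h, against 9.54% of all probe sets higher and 7.15% lower. Retrovirus, siRNA and stimulation differ together between these arrays.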
